A study of Rattus norvegicus with 8 samples.

Results

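Imprinted growth genes were followed in cultured heart cells of newborn rats after knockdown of Echs1, the mitochondrial enzyme enoyl-CoA hydratase of short-chain fatty acid and branched-chain amino acid breakdown. The set of 10 genes comprised Mir675, its host gene H19, and the fetal growth genes Cdkn1c, Dlk1, Meg3, Peg3, Mest, Grb10, Plagl1 and Ndn. They were chosen by name with results of the same contrast in view, since the values of Mir675 in siECHS1 and siNC had drawn attention to it. Their values are therefore given as a description, without p-values, and their calls in the fit over all genes are only counted. Of the 10 names, 8 matched a row of the deposited table of 21017 rows, and no row carried the name H19 or Meg3.

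RNA was sequenced from 8 libraries of neonatal rat cardiomyocytes of the strain labelled SD. The siECHS1 group of 4 libraries came from cells transfected with siECHS1, and the siNC group of 4 libraries from cells transfected with siNC, both for 48 h. The labels do not spell out siNC, and they give neither the siRNA sequences nor the number of animals behind a library. They also do not say whether replicates were separate cultures, so every p-value below measures only the spread between these samples.

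In genomic imprinting, a gene is transcribed mainly from the copy inherited from 1 parent. Much of what is known of the imprinted genes comes from the mouse, where many of them set fetal and placental growth. Genes expressed from the mother's copy often restrain growth, and genes expressed from the father's copy often promote it. H19 is a maternally expressed noncoding RNA that lies beside the growth factor gene Igf2, and the hairpin of miR-675 lies inside it.

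The mature products and the hairpin of Mir675 are shown because the row with the lowest siECHS1 to siNC ratio among the 8 is this short stretch of sequence and not a whole gene. The sequences are from RefSeq, run 5′ to 3′, and have the seeds, bases 2 to 8 of each mature product, in capitals.
rno-miR-675-5p: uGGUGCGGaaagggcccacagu
rno-miR-675-3p: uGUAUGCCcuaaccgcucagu
Mir675 hairpin: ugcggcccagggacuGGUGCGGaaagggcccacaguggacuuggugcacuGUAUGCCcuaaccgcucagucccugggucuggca
The hairpin has 84 bases and is annotated on the minus strand of chromosome 1 in the build GRCr8, at chr1:207161752-207161835, inside the H19 gene. The 5p product of 22 bases takes up bases 15 to 36 of the hairpin, and the 3p product of 21 bases takes up bases 50 to 70. Neither seed was shared with another of the 724 mature rat miRNAs searched.

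Library totals, recovered from the deposited values and not counted from raw reads, lay between 16953309 and 18237111 reads. Echs1 itself had 0.670, 0.444, 0.424 and 0.525 FPKM in siECHS1 replicates 1 to 4, against 1.66, 1.35, 1.18 and 1.12 FPKM in siNC replicates 1 to 4. FPKM, the unit the authors deposited, are fragments scaled to the length of the row and to the size of the library. The Echs1 groups did not overlap, but the row rested on 55 reads in siECHS1 and 138 reads in siNC, shared its protein match with LOC100911186 and overlapped Zfp710. Of the cardiomyocyte markers, 8 had a row, and their summed level lay between 7972 and 8794 FPKM in siECHS1 and between 7848 and 8084 FPKM in siNC. This sum holds markers that moved in opposite directions. Actc1, its largest part, rose from a mean of 3273 FPKM in siNC to 3730 FPKM in siECHS1. Myh6 fell from 948 to 741 FPKM and Tnni3 from 181 to 150 FPKM. Fibroblast markers were present as well, with a summed level of 3727 to 4097 FPKM in siECHS1 and of 2872 to 3074 FPKM in siNC. Most of this sum was Col1a1, at a mean of 2768 FPKM in siECHS1 and 2087 FPKM in siNC. Of the 9 fibroblast markers tested, 5 rose, 1 fell and 3 did not pass, while 8.83% of all genes tested rose and 12.2% fell. Endothelial markers summed to 26.3 to 27.0 FPKM in siECHS1 and to 24.6 to 27.2 FPKM in siNC. In such bulk RNA, fewer cells of a type and less RNA per cell cannot be told apart.

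All 8 rows reached a mean of 1 FPKM and so entered the fit. Mir675, Cdkn1c, Dlk1 and Plagl1 were lower in every siECHS1 library than in every siNC library, while Peg3, Mest, Grb10 and Ndn overlapped between the groups. In the limma fit over all 12616 genes tested, at a Benjamini-Hochberg adjusted p under 0.05, 4 of the 8 were called fallen and 0 were called risen; at an unadjusted p under 0.05 these counts were 5 and 0, and by limma-voom 4 and 0. The same fit called 12.2% of all genes tested fallen and 8.83% risen. Under median-of-ratios scaling the fit called 1288 genes risen and 1242 fallen, so the excess of falls over all genes depends on the scaling. The count of 4 includes Dlk1, whose call was lost without a filter, without siECHS1 replicate 1 or 2 and without siNC replicate 2, 3 or 4, and Mest was called as well without siNC replicate 2. Of all genes tested, 14.9% had every siECHS1 library below every siNC library, and 10.3% had every siECHS1 library above. As the genes were selected on this contrast, nothing is read from these counts.

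**Figure D1:**
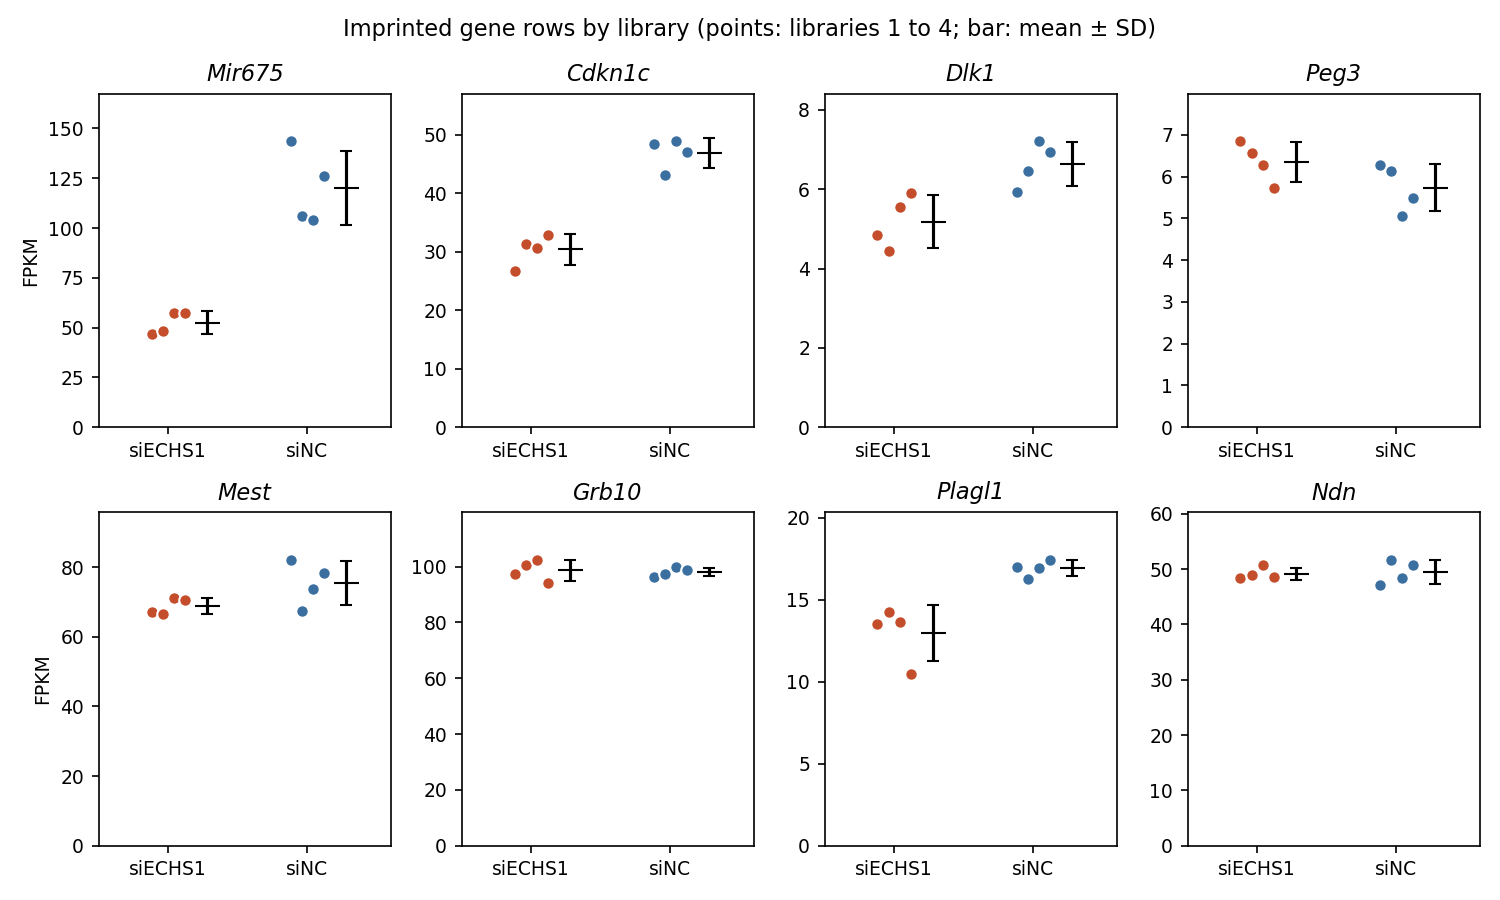
FPKM of the 8 imprinted gene rows in each library (points, replicates 1 to 4 from left to right) with the mean and SD of each group (black), siECHS1 on the left and siNC on the right, each panel on its own axis from 0. Mir675 lies between 46.7 and 57.6 FPKM in siECHS1 and between 104 and 144 FPKM in siNC, while the points of Grb10 and Ndn overlap.

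Among the genes that are maternally expressed in the mouse, the Mir675 row (ENSRNOG00000040350, chr1:215745981-215746064 as the table gives it, minus strand) had 46.7, 48.3, 57.1 and 57.6 FPKM in siECHS1 replicates 1 to 4, against 144, 106, 104 and 126 FPKM in siNC replicates 1 to 4. All siECHS1 libraries were low and all siNC libraries were high, with a wide gap between the groups and siNC replicate 1 the highest. The mean was 52.4 ± 5.73 FPKM in siECHS1 and 120 ± 18.7 FPKM in siNC (SD, n = 4 each), a ratio of 0.437. On the scale of log2(FPKM + 1), used for all differences below, low genes show too small a change. There the difference for Mir675 was -1.17 with a standard error of 0.13.

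The row rested on few reads. It held 71, 74, 84 and 87 reads in siECHS1 replicates 1 to 4, against 220, 151, 150 and 185 reads in siNC replicates 1 to 4, in all 316 against 706. The exact 95% Poisson interval of the highest siECHS1 library ran from 46.1 to 71.0 FPKM, and that of the lowest siNC library ran from 88.1 to 122 FPKM, so the 2 intervals nearest to each other did not meet. Such intervals cover counting error only. Counting alone would give an SD of 11.3% of the mean in siECHS1, where 10.9% was observed, and of 7.53% in siNC, where 15.6% was observed. The siNC libraries thus varied by more than counting of the reads gives, and the siECHS1 libraries by about as much.

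**Figure D2:**
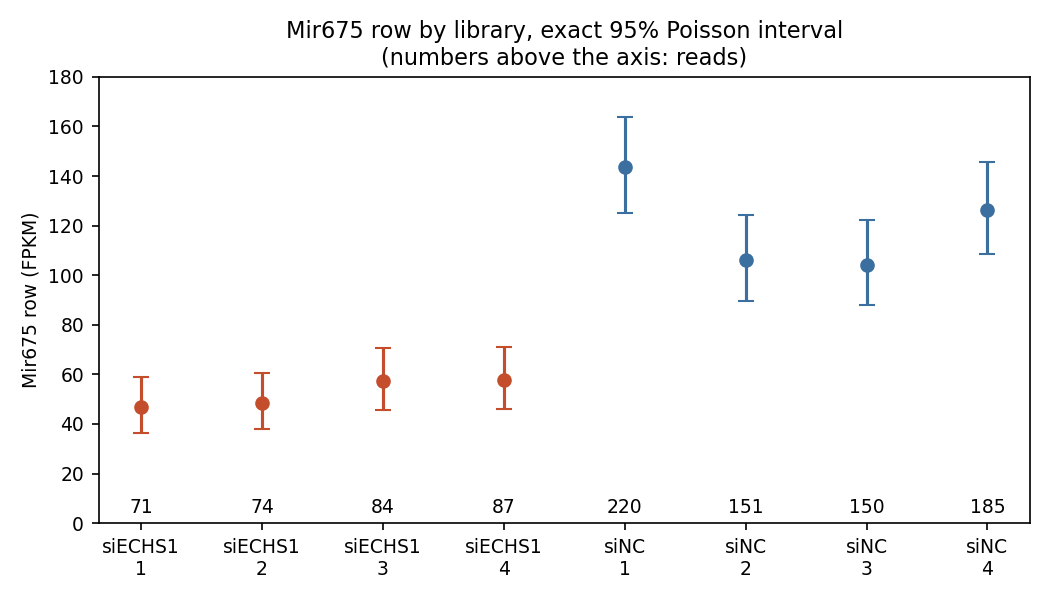
FPKM of the Mir675 row in each library with its exact 95% Poisson interval (bars) and the number of reads behind it (numbers above the axis), siECHS1 on the left and siNC on the right. The siECHS1 libraries hold 71 to 87 reads and the siNC libraries 150 to 220 reads, and no siECHS1 interval meets a siNC interval.

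What the row measures is limited by how it was made. The TruSeq RNA kit used is no small RNA protocol and keeps no strand information, and the sources used here do not state how reads were counted on so short a row. The values do not separate mature miR-675 from its hairpin or from the H19 transcript around it. The row nearest to it in the table was Mrpl23, a mitochondrial ribosomal protein gene, at a distance of 36668 bases, and H19 is not analysed here. Of the 280 rows listed as miRNA, 84 were tested, of which 3 rose and 7 fell, against 8.83% risen and 12.2% fallen of all genes tested. Mir675 ranked 7 among the miRNA rows both by mean FPKM and by reads. Only 23 miRNA rows held 100 reads or more over the 8 libraries.

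Cdkn1c (ENSRNOG00000059500, chr1:216661080-216663721, minus strand) encodes the cyclin-dependent kinase inhibitor p57, which brings dividing cells out of the cell cycle. It had 26.6, 31.4, 30.7 and 32.8 FPKM in siECHS1 replicates 1 to 4, against 48.5, 43.1, 48.9 and 47.1 FPKM in siNC replicates 1 to 4. Every siECHS1 library was low and every siNC library high, without overlap. The mean was 30.4 ± 2.66 FPKM in siECHS1 and 46.9 ± 2.62 FPKM in siNC (SD, n = 4 each), a ratio of 0.648 and a log2 difference of -0.61 with a standard error of 0.07. With 4457 reads in siECHS1 and 6689 reads in siNC, this row was far less limited by counting than Mir675.

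Grb10 (ENSRNOG00000004290, chr14:92021851-92117923, minus strand) encodes an adaptor that binds the insulin and IGF1 receptors and dampens their signal. It had 97.3, 100.5, 102.5 and 94.0 FPKM in siECHS1 replicates 1 to 4, against 96.3, 97.5, 99.7 and 98.7 FPKM in siNC replicates 1 to 4. The groups overlapped fully, the siNC values lying inside the range of the siECHS1 values. The means were 98.6 ± 3.71 FPKM in siECHS1 and 98.0 ± 1.47 FPKM in siNC (SD, n = 4 each), the highest siECHS1 level per length among the 8 rows.

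Among the genes that are paternally expressed in the mouse, Dlk1 (ENSRNOG00000019584, chr6:133552821-133583751, plus strand) encodes a membrane protein of the Notch ligand family that holds back differentiation of precursor cells. It had 4.84, 4.43, 5.54 and 5.91 FPKM in siECHS1 replicates 1 to 4, against 5.93, 6.46, 7.21 and 6.94 FPKM in siNC replicates 1 to 4. All siECHS1 libraries lay below all siNC libraries, but siECHS1 replicate 4 and siNC replicate 1 nearly touched. The mean was 5.18 ± 0.667 FPKM in siECHS1 and 6.64 ± 0.563 FPKM in siNC (SD, n = 4 each), a log2 difference of -0.31 with a standard error of 0.10. The row held 598 reads in siECHS1 and 744 reads in siNC. Leaving out a library moved the log2 difference between -0.36 and -0.25.

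Plagl1 (ENSRNOG00000025587, chr1:7252349-7259035, plus strand) encodes a zinc finger transcription factor that in the mouse regulates other imprinted genes. It had 13.5, 14.2, 13.6 and 10.5 FPKM in siECHS1 replicates 1 to 4, against 17.0, 16.3, 16.9 and 17.4 FPKM in siNC replicates 1 to 4. The siNC libraries lay close together and above all siECHS1 libraries, of which replicate 4 was the lowest. The mean was 12.96 ± 1.69 FPKM in siECHS1 and 16.9 ± 0.493 FPKM in siNC (SD, n = 4 each), a ratio of 0.767. The log2 difference was -0.37 with a standard error of 0.09, and it was -0.28 without siECHS1 replicate 4.

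Mest (ENSRNOG00000048088, chr4:58053041-58063138, plus strand), which encodes a hydrolase of the endoplasmic reticulum known for its high expression in fetal mesoderm, had 67.1, 66.6, 71.1 and 70.5 FPKM in siECHS1 replicates 1 to 4, against 82.2, 67.5, 73.6 and 78.4 FPKM in siNC replicates 1 to 4. The groups overlapped through siNC replicate 2 alone. The means were 68.8 ± 2.32 FPKM in siECHS1 and 75.4 ± 6.31 FPKM in siNC (SD, n = 4 each). The log2 difference was -0.13 with a standard error of 0.06, and without siNC replicate 2 it was -0.18.

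Peg3 (ENSRNOG00000014791, chr1:70222964-70237443, plus strand), a zinc finger gene needed in the mouse for normal growth and maternal care, had 6.85, 6.56, 6.27 and 5.73 FPKM in siECHS1 replicates 1 to 4, against 6.29, 6.13, 5.06 and 5.48 FPKM in siNC replicates 1 to 4. Replicates 1 and 2 of siECHS1 were the highest values, but the groups overlapped. The means were 6.35 ± 0.476 FPKM in siECHS1 and 5.74 ± 0.572 FPKM in siNC (SD, n = 4 each), a log2 difference of 0.13 with a standard error of 0.08. Zim1, its imprinted neighbour, had 1.57 ± 0.167 FPKM in siECHS1 and 1.44 ± 0.102 FPKM in siNC (SD, n = 4 each) and did not pass the test.

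Ndn (ENSRNOG00000010146, chr1:122981755-122983351, plus strand) encodes necdin, a growth-restraining protein of the MAGE family that is best known from neurons. It had 48.3, 49.0, 50.7 and 48.5 FPKM in siECHS1 replicates 1 to 4, against 47.0, 51.7, 48.4 and 50.8 FPKM in siNC replicates 1 to 4. High and low values were mixed between the groups. The means were 49.1 ± 1.11 FPKM in siECHS1 and 49.5 ± 2.15 FPKM in siNC (SD, n = 4 each), a log2 difference of -0.01 with a standard error of 0.03.

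For Meg3, the maternally expressed noncoding RNA of the Dlk1 domain, no row had the name. A pair of rows beside Dlk1 had the RefSeq Meg3 transcript as their best nucleotide match in the table's annotation, and both are reported under their own names. The lincRNA row AABR07065531.5 averaged 2.20 ± 0.640 FPKM in siECHS1 and 2.13 ± 0.342 FPKM in siNC (SD, n = 4 each), from 92 reads in siECHS1 and 87 reads in siNC. The row AABR07065531.1 averaged 6.46 ± 2.99 FPKM in siECHS1 and 4.61 ± 2.05 FPKM in siNC (SD, n = 4 each), from 37 reads in siECHS1 and 26 reads in siNC. Both overlapped between the groups, and neither passed the limma test, with adjusted p = 0.950 and 0.446.

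Further imprinted genes, taken from a list of 83 symbols other than the 10, were tested in the same fit. Of these symbols 49 matched a row, and 34 rows were tested, of which 2 rose, 10 fell and 22 did not pass. The median log2 difference over the 34 rows was -0.05, against -0.01 over all genes tested, of which 8.83% rose and 12.2% fell. The list was written with earlier results of these data known, so its count is a description.

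Of the paternally expressed genes on that list, 14 were tested, with 1 risen and 5 fallen. Impact, whose product inhibits activation of the eIF2 kinase GCN2, rose to 18.95 ± 1.35 FPKM in siECHS1, against 9.61 ± 1.200 FPKM in siNC (SD, n = 4 each), a log2 difference of 0.92 with limma adjusted p = 9.1e-05. Igf2, the fetal growth factor gene that shares its control region with H19, fell to 3.97, 3.71, 3.91 and 4.51 FPKM in siECHS1 replicates 1 to 4, against 5.77, 5.44, 4.89 and 5.02 FPKM in siNC replicates 1 to 4. Every siECHS1 library lay below every siNC library, with a log2 difference of -0.32 and limma adjusted p = 0.01004.

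Ddc, the aromatic amino acid decarboxylase gene that lies beside Grb10, fell to 16.4 ± 0.359 FPKM in siECHS1, against 21.0 ± 0.516 FPKM in siNC (SD, n = 4 each), with limma adjusted p = 0.00025, while Grb10 itself was nearly equal between the groups. Dio3, the thyroid hormone-inactivating deiodinase, Gab1, a docking protein of receptor tyrosine kinases, and Slc38a4, an amino acid transporter, fell by 0.37, 0.21 and 0.23 on the log2 scale, with limma adjusted p = 0.0249, 0.0267 and 0.0437. The Dio3 row, listed as a pseudogene, rested on 137 reads in siECHS1 and 211 reads in siNC. The call of Dio3 was lost without siECHS1 replicate 1 or 2 or siNC replicate 4, with adjusted p between 0.0632 and 0.0723. That of Gab1 was lost without siECHS1 replicate 2 or 3 or siNC replicate 1, 3 or 4, with adjusted p between 0.0539 and 0.0704, and that of Slc38a4 without siECHS1 replicate 1 or 2 or any siNC replicate, with adjusted p between 0.0579 and 0.112. Without a filter Gab1 and Slc38a4 lost their call too, as did Slc38a4 under median-of-ratios scaling and with a replicate block. Of the 8 that did not pass, Sgce, Nnat and Zrsr1 had the highest levels. Sgce, a sarcoglycan gene, averaged 31.5 ± 1.97 FPKM in siECHS1 and 30.8 ± 2.00 FPKM in siNC (SD, n = 4 each).

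Of the maternally expressed genes on the list, 16 were tested, with 1 risen and 5 fallen. Igf2r, whose product binds IGF2 and carries it to the lysosome, rose to 291, 292, 299 and 252 FPKM in siECHS1 replicates 1 to 4, against 226, 226, 239 and 217 FPKM in siNC replicates 1 to 4. All siECHS1 libraries were above all siNC libraries, replicate 4 being the lowest of its group, with a log2 difference of 0.32 and limma adjusted p = 0.0026. Igf2 and Igf2r, a ligand and its clearance receptor, thus changed in opposite directions.

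Blcap, a small membrane protein gene, fell to 17.5 ± 0.923 FPKM in siECHS1, against 24.1 ± 0.855 FPKM in siNC (SD, n = 4 each), with limma adjusted p = 0.00020. Nnat, which lies next to Blcap on chromosome 3, averaged 22.6 ± 1.53 FPKM in siECHS1 and 23.6 ± 1.26 FPKM in siNC (SD, n = 4 each) and did not pass the test. The other 4 that fell, Tssc4, Cd81, Kcnq1 and Osbpl5, all lie on chromosome 1 between Mir675 and the end of the Cdkn1c domain. Among those that did not pass, Nap1l4, Commd1 and Trappc9 had the highest levels, with log2 differences of 0.06, -0.08 and -0.09. The remaining list group, of genes with mixed or isoform-dependent imprinting, had 4 rows tested and 0 called by limma, 0 at an unadjusted p under 0.05 and 0 by limma-voom on reads recovered from the FPKM. It held Copg2, Begain and a pair of overlapping Gnas rows. Of 28 imprinted miRNAs listed, 3 had a row, and none reached the filter.

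**Figure D3:**
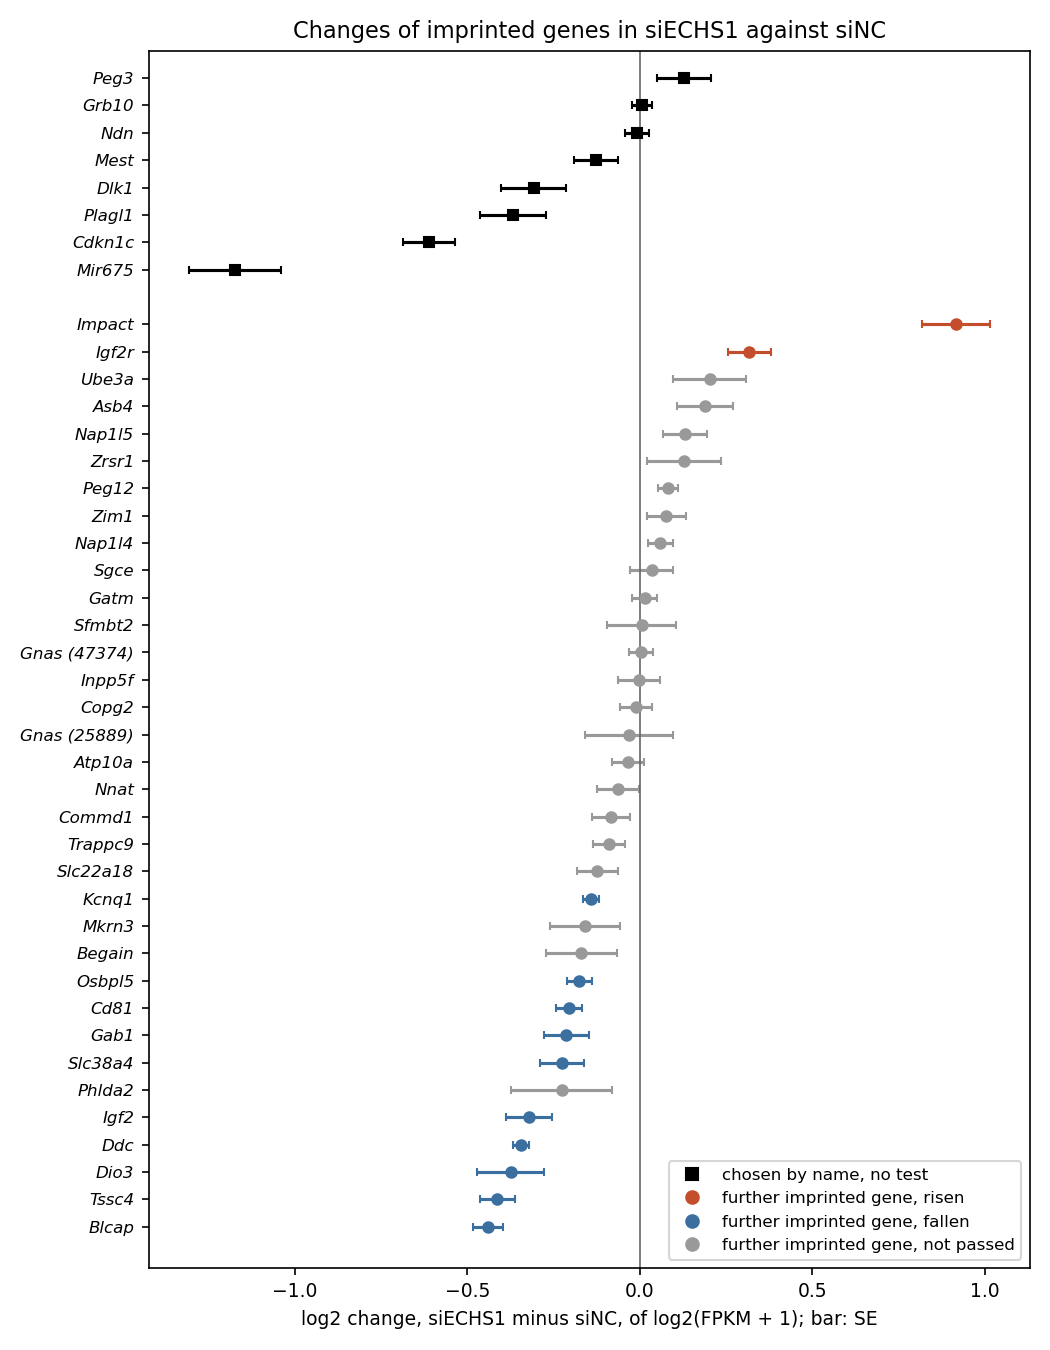
Difference of log2(FPKM + 1), siECHS1 minus siNC, with its standard error from the replicates, for the 8 imprinted gene rows chosen by name (black squares, no test) and the 34 further imprinted rows tested (circles, coloured where they passed limma at an adjusted p under 0.05). Mir675 has a difference of -1.17, and of the 34 further rows 2 rose, with Impact at 0.92, and 10 fell.

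Mir675 and Cdkn1c lie in neighbouring imprinted domains, named after H19 and Igf2 and after Kcnq1. The stretch of 1175 kb on chromosome 1 that runs from Mir675 to Osbpl5 was looked at after its values had been seen, so its count is a description. It held 20 rows, of which 12 were tested. By limma 0 rose and 7 fell, and the counts were the same at an unadjusted p under 0.05 and by limma-voom. Over all genes tested, 8.83% rose and 12.2% fell. The 7 include Mir675 and Cdkn1c, which were chosen on this contrast, and both ends of the stretch, Mir675 and Osbpl5. On the other side of Mir675, outside the stretch, Mrpl23, Lsp1 and Ctsd did not pass. Nothing is read from this count. The median log2 difference of the 12 was -0.19, against -0.01 over all genes tested. Among rows in the stretch that were neither in the set nor on the list, Cars, a tRNA synthetase gene, and Tnfrsf26 were tested. They had log2 differences of 0.07 and 0.10 and did not pass.

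Within the stretch, Tssc4, a gene of little known function, fell to 34.7, 34.6, 35.8 and 38.1 FPKM in siECHS1 replicates 1 to 4, against 45.6, 47.5, 46.9 and 52.2 FPKM in siNC replicates 1 to 4, with limma adjusted p = 0.00035. Every siECHS1 library was below every siNC library, with a log2 difference of -0.41. Cd81, a tetraspanin of the cell surface, fell to 1189 ± 43.0 FPKM in siECHS1, against 1372 ± 54.1 FPKM in siNC (SD, n = 4 each), a log2 difference of -0.21 with limma adjusted p = 0.0061. Kcnq1, the pore-forming subunit of the slow delayed rectifier potassium channel of the heart, fell to 12.7 ± 0.286 FPKM in siECHS1, against 14.1 ± 0.351 FPKM in siNC (SD, n = 4 each), with limma adjusted p = 0.0310. The call of Kcnq1 was lost in 6 of 8 fits that left out a library, namely siECHS1 replicate 1, 2 or 3 or siNC replicate 2, 3 or 4, with adjusted p between 0.0533 and 0.0940, and also under median-of-ratios scaling and quantile normalization. Osbpl5, an oxysterol-binding protein gene, fell by 0.18 on the log2 scale with limma adjusted p = 0.0150.

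Beside Cdkn1c, the nearest row, Slc22a18, and Phlda2, which lies just beyond Kcnq1 in distance, had log2 differences of -0.12 and -0.23 and did not pass. Phlda2, a growth-restraining gene of the placenta, averaged 3.77 ± 0.773 FPKM in siECHS1 and 4.56 ± 0.640 FPKM in siNC (SD, n = 4 each), and its groups overlapped. Igf2r, Osbpl5, Nap1l4 and Gab1 overlap another listed row, Zrsr1 overlaps Commd1, and without strand their reads cannot be told apart there.

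**Figure D4:**
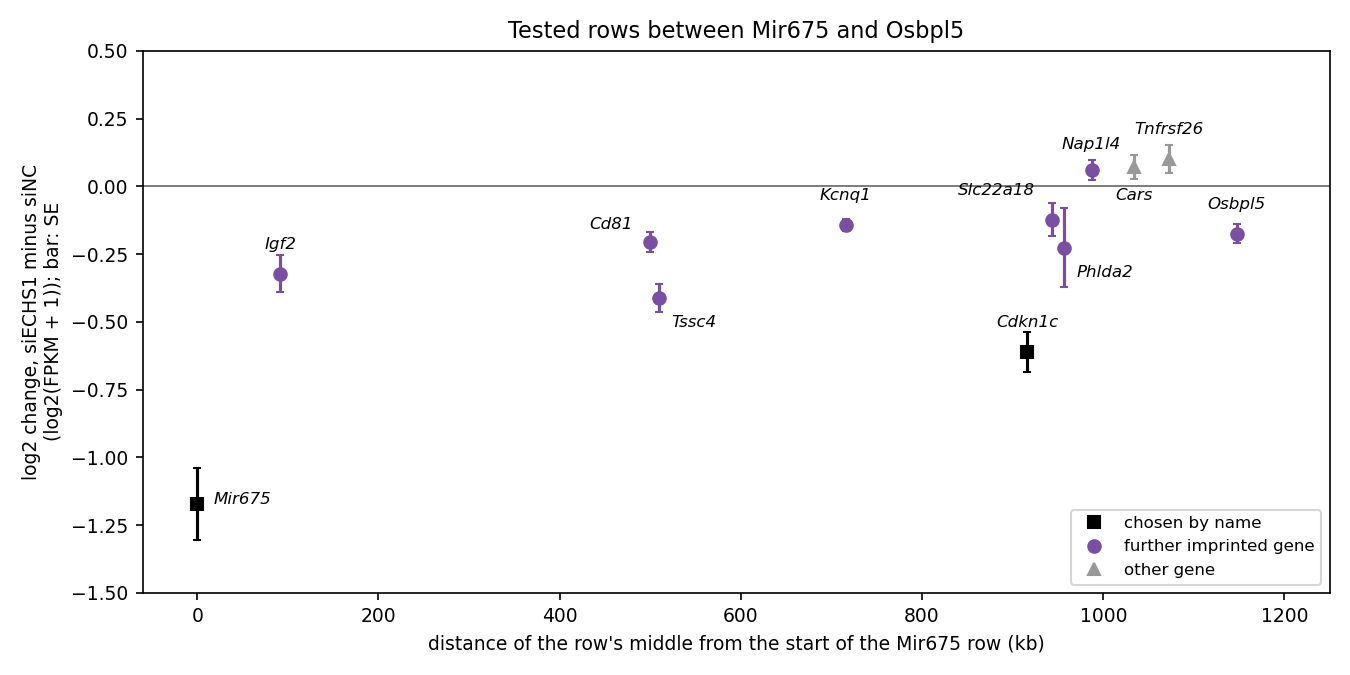
Difference of log2(FPKM + 1), siECHS1 minus siNC, with its standard error, for the 12 rows tested in the stretch of chromosome 1 from Mir675 to Osbpl5, plotted by the distance of each row's middle from the start of the Mir675 row. Mir675 (-1.17) and Cdkn1c (-0.61) are the lowest points, and Nap1l4, Cars and Tnfrsf26 lie above 0.

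Neighbours of the set's genes other than Cdkn1c were counted as well. Over all genes tested, 8.83% rose and 12.2% fell, and nothing is read from counts of so few rows. Within 200 kb of Mir675, 4 rows were tested, and Igf2 fell while Mrpl23, Lsp1 and Ctsd did not pass. Ctsd, the lysosomal protease cathepsin D, averaged 648 FPKM in siECHS1 and 630 FPKM in siNC. Within 200 kb of Grb10, 2 rows were tested, of which Ddc fell and Fignl1 did not pass. Of the neighbours tested beside Dlk1 (2), Peg3 (1), Mest (2), Plagl1 (4) and Ndn (2), 0 were called by limma, 0 reached an unadjusted p under 0.05 and 0 were called by limma-voom. These were the Meg3-matched rows, Zim1, Copg2, Cep41, Ltv1, Phactr2, Sf3b5, Stx11, Mkrn3 and Peg12.

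Rows with only a clone or locus name were left out of a search for profiles like that of Mir675. Among the other tested genes, Pnoc, Ankrd13a, Ccl17, Mmp12 and Acsbg1 lay nearest to it over the 8 libraries. Nearness was the root mean square distance of log2(FPKM + 1) after taking off each gene's siNC mean, and it was 0.205 for Pnoc and 0.330 for Acsbg1. Such a distance is small for genes that fell by a like amount in siECHS1, so the list is a description. Pnoc, the precursor of the neuropeptide nociceptin, averaged 2.12 ± 0.360 FPKM in siECHS1 and 6.43 ± 0.599 FPKM in siNC (SD, n = 4 each). Ankrd13a averaged 25.9 ± 2.03 FPKM in siECHS1 and 51.7 ± 1.97 FPKM in siNC (SD, n = 4 each). Ccl17 rested on 11 reads in siECHS1 and 44 reads in siNC.

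Targets that have been reported for miR-675 in other studies were tested as a list of 9 genes. Limma called 1 risen and 0 fallen, against 1 and 1 at an unadjusted p under 0.05 and 1 and 1 by limma-voom. The call made up 11.1% of the list, while 8.83% of all genes tested rose and 12.2% fell. The median log2 difference of the list was 0.03. Smad1, a transducer of BMP signals, rose to 24.4 ± 1.22 FPKM in siECHS1, against 21.8 ± 0.944 FPKM in siNC (SD, n = 4 each), with limma adjusted p = 0.0439. The groups of Smad1 overlapped, and its call was lost without siECHS1 replicate 2, 3 or 4 or siNC replicate 1, 2 or 4, with adjusted p between 0.0656 and 0.121, and also without a filter and without a variance trend. Rb1, the retinoblastoma gene, averaged 6.75 ± 0.863 FPKM in siECHS1 and 8.15 ± 0.473 FPKM in siNC (SD, n = 4 each), with limma adjusted p = 0.0505. It passed as lower without siECHS1 replicate 1 (limma adjusted p = 0.0122) and with a filter at a mean of 5 FPKM (limma adjusted p = 0.0405). By limma-voom it passed as well, with adjusted p = 0.0234. The Rb1 row overlaps that of Lpar6, and its groups overlapped.

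Camk2d, the main calcium/calmodulin-dependent kinase II gene of the heart, averaged 35.7 ± 1.42 FPKM in siECHS1 and 34.9 ± 1.36 FPKM in siNC (SD, n = 4 each), and its groups overlapped. Vdac1, a mitochondrial outer membrane channel gene that shares its protein match with LOC688754, averaged 205 ± 5.30 FPKM in siECHS1 and 213 ± 8.26 FPKM in siNC (SD, n = 4 each). Igf1r, the receptor for IGF1 and IGF2, averaged 17.5 ± 1.55 FPKM in siECHS1 and 18.8 ± 1.10 FPKM in siNC (SD, n = 4 each). The remaining 4, Tgfbi, Runx1, Cdc6 and Smad5, did not pass either. Transcript levels of reported targets bear on RNA only, and protein was not measured.

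Of 14 genes of the insulin-like growth factor axis tested, 2 rose and 5 fell, against 8.83% risen and 12.2% fallen of all genes tested. Like the list of reported targets, this list was chosen with earlier results of these data known, so its count is a description. Igf2 and Igf2r were also counted among the further imprinted genes. Beside Igf2r, Igfbp4 rose, and beside Igf2, Igf1, Igf2bp2, Igfbp2 and Igfbp5 fell, with Igfbp5 at 30.4 ± 2.44 FPKM in siECHS1, against 46.3 ± 1.65 FPKM in siNC (SD, n = 4 each; limma adjusted p = 0.00010). The calls of 3 of these were lost in some fits that left out a library, with adjusted p up to 0.0880 for Igf2bp2 (without siECHS1 replicate 1, 2 or 3 or siNC replicate 1 or 3), 0.0661 for Igfbp4 (without siECHS1 replicate 3 or siNC replicate 1, 2 or 3) and 0.0521 for Igfbp2 (without siECHS1 replicate 1 or siNC replicate 3). Igf2bp2 and Igfbp2 also lost their call without a filter, Igf2bp2 with a replicate block and Igfbp4 without a variance trend. Igfbp3, Irs2 and Igf1r, the most abundant of those that did not pass, had log2 differences of -0.07, 0.12 and -0.10.

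Factors that set or keep imprints were tested as 7 rows. Limma called 0, with 0 higher and 1 lower at an unadjusted p under 0.05 and 0 risen and 1 fallen by limma-voom. Over all genes tested, limma called 8.83% risen and 12.2% fallen. Trim28, a corepressor that protects imprints with Zfp57 in the mouse embryo, averaged 102 ± 3.95 FPKM in siECHS1 and 111 ± 4.19 FPKM in siNC (SD, n = 4 each), with limma adjusted p = 0.0572. Its siECHS1 libraries were all below its siNC libraries. Dnmt1, the maintenance DNA methyltransferase, averaged 18.5 ± 1.22 FPKM in siECHS1 and 18.0 ± 0.516 FPKM in siNC (SD, n = 4 each). Ctcf, which binds the control region between Igf2 and H19, averaged 15.7 ± 0.940 FPKM in siECHS1 and 16.1 ± 1.06 FPKM in siNC (SD, n = 4 each). DNA methylation and allele of origin were not measured, so these data do not bear on the imprints themselves.

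Rows for markers of other heart cell types were found too. The deposited table lists no row at 0 in all libraries, so having a row says little by itself. The Hbb row, an erythroid marker, held 0 reads in siECHS1 and 1 read in siNC. Of the 8 cardiomyocyte markers tested, Actc1 rose, Myh6 and Tnni3 fell and 5 did not pass, while 8.83% of all genes tested rose and 12.2% fell. Of the fibroblast markers, 9 were tested, of which Dcn, Col1a1, Col3a1, Postn and Ddr2 rose, Lum fell and Pdgfra, Tcf21 and Thy1 did not pass. Smooth muscle and pericyte markers summed to 1752 to 1894 FPKM in siECHS1 and 2124 to 2188 FPKM in siNC, mostly from Tagln, which fell. Of the 6 smooth muscle and pericyte markers tested, Abcc9 rose and the other 4 did not pass. Epicardial markers summed to 37.9 to 42.0 FPKM in siECHS1 and 30.6 to 33.5 FPKM in siNC, and macrophage markers to 20.0 to 23.9 FPKM in siECHS1 and 20.7 to 22.6 FPKM in siNC. These sums hold markers that moved in opposite directions, since Upk1b rose and Wt1 fell among the epicardial markers, and Cd68 rose and Csf1r fell among the macrophage markers. Schwann cell markers summed to 6.66 to 8.10 FPKM in siECHS1 and 7.76 to 8.65 FPKM in siNC, and erythroid markers to 0.810 to 2.18 FPKM in siECHS1 and 2.10 to 3.43 FPKM in siNC. Their part in the values of Mir675, Cdkn1c, Dlk1 and Plagl1 was not tested.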

How the data were processed

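Expression was deposited by the authors as FPKM for each Ensembl rat gene and library. The submitters' processing notes name Bowtie 0.12.2 and the builds Rnor_6.0 and mm8 with no roles, so coordinates follow the table. Per the labels' protocols, libraries were made from 1 µg of total RNA with a TruSeq RNA kit. The sources used here do not state the counting tool, annotation release or strand setting. Reads per row were recovered from the steps of the FPKM values, by a search for a row length at which every value is a whole number of reads. In rows where a length was found, 100% of values were whole within 0.01 read. The search itself requires this, so that share is no check of the recovered reads.

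Values were taken as log2(FPKM + 1), and the 12616 of 21017 rows that reached a mean of 1 FPKM entered a two-sided limma fit of siECHS1 against siNC (limma 3.58.1, R 4.3.3, variance trend). P-values were adjusted by Benjamini-Hochberg over these rows, at a threshold of 0.05. It called 1114 genes risen and 1541 fallen, a balance that depends on the scaling. The recovery and the fit were tested on simulated data. The genes and lists were chosen with earlier results of these data known. Named are the genes of the set, list genes past the threshold, the 3 most abundant of each list that did not pass, rows within 200 kb of the set's genes and the 5 nearest profiles; other genes were named after their values were seen. Alternatives were other pseudocounts, filters, scalings, a replicate block, limma-voom and leaving out each library. Rat miRNA sequences are from RefSeq (GRCr8). Python 3.11.15, pandas 2.3.3 and matplotlib 3.10.9 made the tables and figures.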

Additional observations from a re-analysis of the deposited data

Results flagged for a closer look

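Cd81, which lies between Mir675 and Cdkn1c on chromosome 1, had 1254 FPKM in siECHS1 replicate 4, far from the other siECHS1 libraries, which lay between 1166 and 1169 FPKM. The gap made up 0.966 of the range of the group, above Dixon's 95% critical value for 4 samples. This was the only such value among 52 groups examined, and chance alone flags about 5% of groups. Even siECHS1 replicate 4 of Cd81 lay below the lowest siNC library, at 1311 FPKM. The 52 groups did not cover every row named or summed here. Ccl17 had 0.985 FPKM in siECHS1 replicate 4, against 0.389 to 0.405 FPKM in the other siECHS1 libraries. Among the cardiomyocyte markers, Nkx2-5 had 46.9 FPKM in siNC replicate 2, against 96.2 to 99.4 FPKM in the other siNC libraries.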

How the results depend on the processing

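Over 17 alternatives, the log2 differences of the 8 imprinted gene rows chosen by name moved by less than the spread between replicates. For Mir675 they lay between -1.24 and -1.08 when a library was left out and between -1.19 and -1.15 otherwise. The small differences of Grb10 and Ndn kept their sign in 14 and 13 of the 17. All genes past the threshold numbered 2655, and 1898 to 2667 when a library was left out. The 1114 risen and 1541 fallen became 1288 and 1242 under median-of-ratios scaling and 1280 and 1436 under quantile normalization. The 12 further imprinted genes past the threshold became 8 to 12 when a library was left out and 9 to 12 otherwise; Impact, Igf2, Ddc, Tssc4, Cd81, Blcap, Igf2r and Osbpl5 kept their call wherever they were tested, while Slc38a4 lost it in 9 of 16, Kcnq1 in 8 of 17, Gab1 in 6 of 17 and Dio3 in 3 of 16. The count of reported miR-675 targets past the threshold was 1, and it was 0 without a filter, 2 with a filter at a mean of 5 FPKM, 0 by limma without a variance trend, 2 by limma-voom on recovered reads (added after seeing the data), and 0 to 2 when a library was left out; the cause was not tested. Replicates share only a number: residual correlations of same-numbered libraries were 0.17, -0.05, 0.01 and 0.07, and with a replicate block 2952 genes passed, with 11 further imprinted genes and 1 reported target. Tests by edgeR and DESeq2 were not run because the table holds FPKM. Among the genes of the set and the Meg3-matched rows, depth limits Mir675, Dlk1 and the Meg3-matched rows most. Other named rows held fewer reads than Mir675, among them Dio3, Phlda2, Echs1 and Ccl17.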
